A study of Mus musculus with 9 samples.

Results

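Otx2, Fgf5, Pou3f1, Zic2, Zic5, Neurod1, Ncam1, Pax6, Sox1 and Nes mark the passage of embryonic stem (ES) cells through a primed epiblast state toward neural ectoderm and neurons. They are 10 of the 20967 genes with a symbol that were counted on the arrays, and each was found by its symbol in the platform annotation. The set was chosen from genes whose levels in these samples were already known, so the levels and differences of the 10 genes are given as a description. The calls and intervals given for them come from the fit over all transcripts, which includes the arrays the set was chosen from, and are not independent tests of these genes. Messenger RNA was measured on 9 Affymetrix mouse gene arrays, 3 for each genotype. The genotypes were ES cells with a Dgcr8 knockout (Dgcr8 KO), ES cells with a Dicer knockout (Dicer KO, the gene Dicer1) and wild-type ES cells of the v6.5 line (WT). All were cultured as ES cells, and no treatment or differentiation step is named. Dgcr8 binds RNA for the nuclease Drosha, with which it forms the Microprocessor that cuts hairpins out of primary microRNA transcripts, and Dicer trims those hairpins to the mature form. The study describes biological replicates, while the sample records describe parallel plates, so the errors may measure only the spread between plates. How many clones each knockout stands for is not given in the sources used here.

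Naive ES cells resemble the epiblast before implantation. On leaving that state they pass through a primed epiblast-like stage in which Otx2, a homeodomain protein, works with Pou3f1 and Fgf5 comes on. Zic2 and Zic5 are zinc finger proteins that stay on into the neural plate. Sox1, Pax6 and the intermediate filament nestin (Nes) then mark neural ectoderm, and Neurod1 and the adhesion molecule Ncam1 mark cells that become neurons.

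The knocked-out genes were lowest where the labels place them. Dgcr8 had a mean log2 level of 8.85 in Dgcr8 KO cells, 9.99 in Dicer KO cells and 9.80 in WT cells, and Dicer1 had 10.42, 8.36 and 10.20 in the same order. The deposited values are log2 levels, and the array medians lay between 6.49 and 6.56. Pearson's r across transcripts was 0.996 to 0.998 between arrays of the same genotype and 0.978 to 0.991 between genotypes. WT replicate 1 and Dgcr8 KO replicate 2 lay farthest apart on the first principal component of the deviations from the genotype means, which held 40.8% of them. ES cell markers were high in every genotype. The mean log2 level of the 12 markers was 11.27 to 11.35 in Dgcr8 KO cells, 11.27 to 11.31 in Dicer KO cells and 10.88 to 10.97 in WT cells, with Pou5f1 at 12.56, 12.80 and 12.38 in the same order. Because RNA of whole plates was measured, fewer cells of a type and less RNA per cell cannot be told apart.

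Otx2, on chromosome 14 (positions 48656781 to 48667644 of GRCm38.p6), is a transcription factor of the epiblast that later patterns the forebrain. Its log2 levels were 9.68, 9.89 and 9.73 in Dgcr8 KO cells, 8.09, 7.96 and 7.80 in Dicer KO cells and 8.45, 8.57 and 8.57 in WT cells. The genotypes did not overlap. Dgcr8 KO cells were highest, WT cells in the middle and Dicer KO cells lowest. The log2 difference was 1.23 for Dgcr8 KO minus WT (2.35-fold higher in Dgcr8 KO), -0.58 for Dicer KO minus WT (1.5-fold lower in Dicer KO) and 1.82 for Dgcr8 KO minus Dicer KO (3.52-fold higher in Dgcr8 KO), each with a standard error of 0.0840. Of the 10 genes, Otx2 was the one called in opposite directions in the mutants against WT. A transcript is called here at a limma adjusted p under 0.05 over all 22982 transcripts counted. Over all transcripts, 155 (0.674%) were called higher in Dgcr8 KO but lower in Dicer KO, and 182 (0.792%) the other way.

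**Figure D1:**
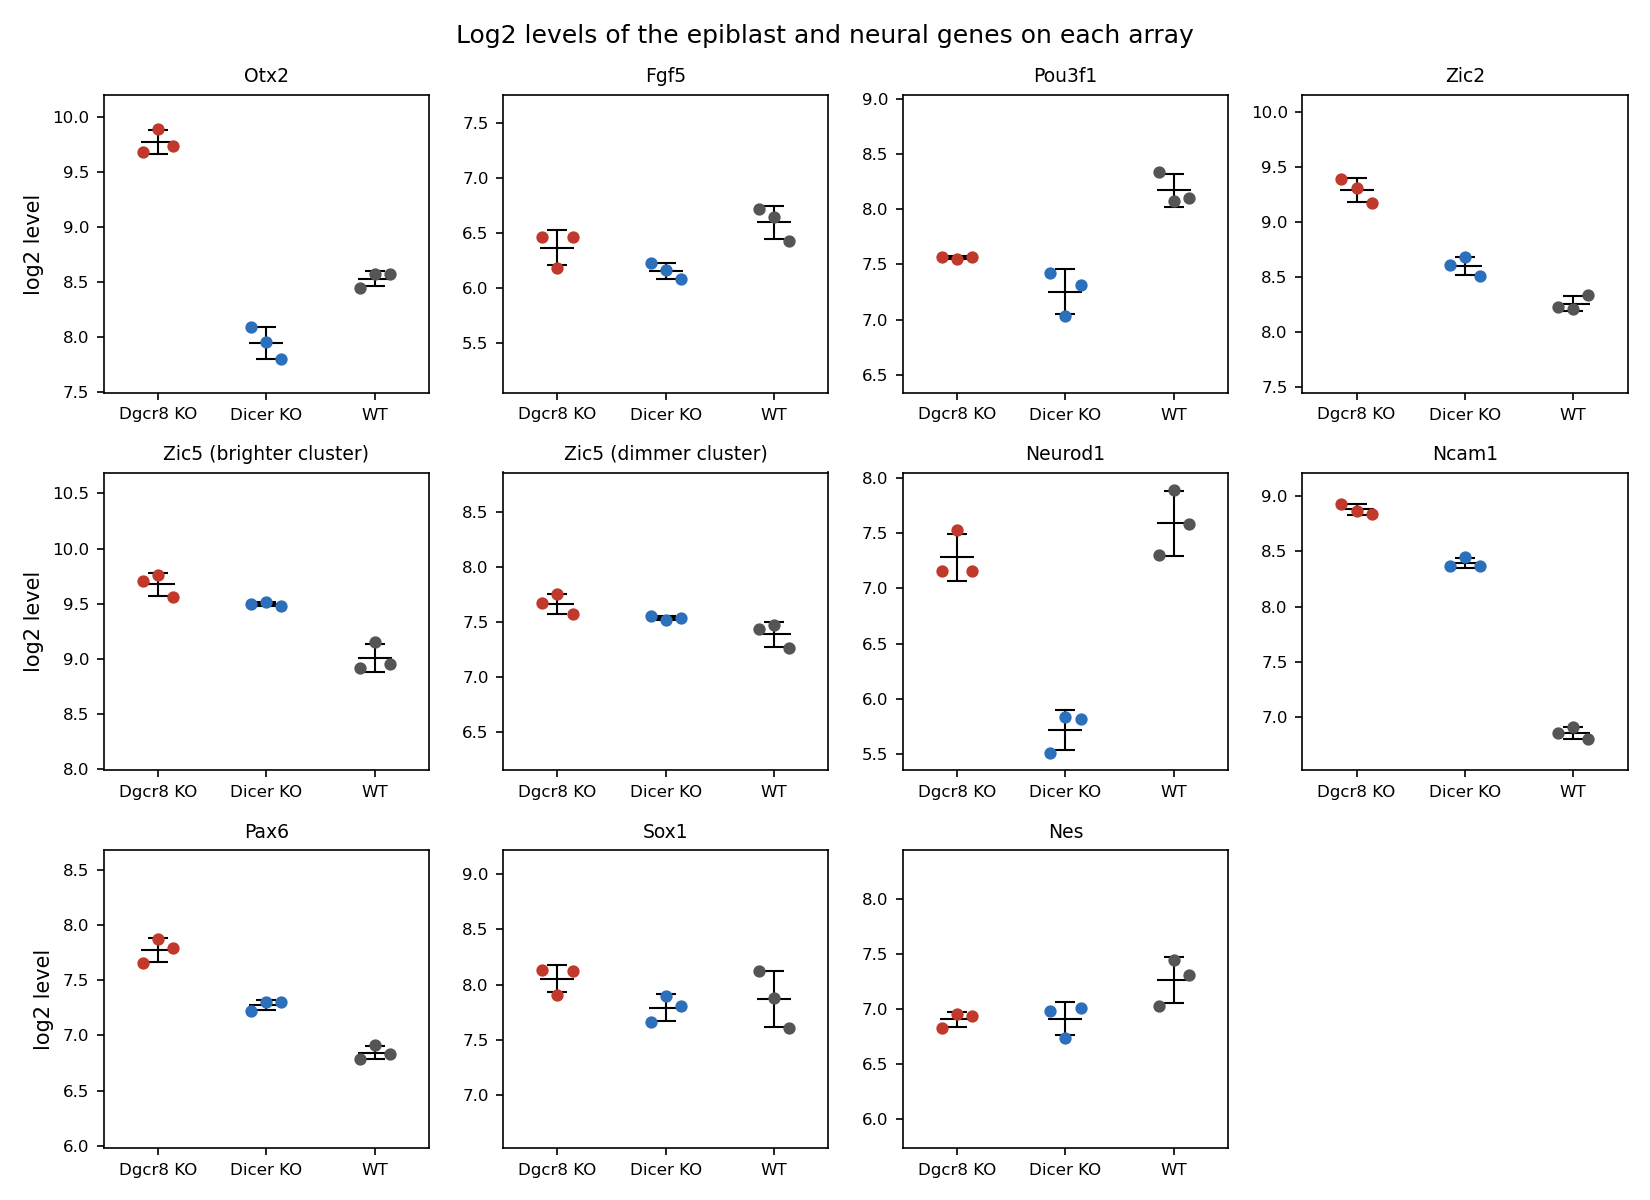
Log2 level of each of the 10 genes (vertical axes, log2 scale, the same span in every panel) on each array of Dgcr8 KO, Dicer KO and WT cells. Points are arrays, the middle bar is the mean and the outer bars are 1 SD (3 arrays per genotype). Otx2 lies at 9.68 to 9.89 in Dgcr8 KO, 7.80 to 8.09 in Dicer KO and 8.45 to 8.57 in WT, and Neurod1 lies lowest in Dicer KO, at 5.51 to 5.83.

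RefSeq promoter windows, which run from 250 bases before to 50 after a transcription start, were matched by symbol for 7 of the 10 genes. No window was matched for Pou3f1, Zic2 and Ncam1. Otx2 has 4 annotated starts, and 1 of their windows holds the core letters bound by Otx proteins, TAATCC. On the gene's strand they read GGATTA and begin at position -211 from the start. The 250 bases before that start are shown because Otx2 was the gene called in opposite directions in the mutants. They lie at chr14:48665110-48665359 of GRCm38.p6 on the minus strand and are written 5′ to 3′ on the gene's strand, with the Otx letters in capitals.
Otx2, start with the Otx letters: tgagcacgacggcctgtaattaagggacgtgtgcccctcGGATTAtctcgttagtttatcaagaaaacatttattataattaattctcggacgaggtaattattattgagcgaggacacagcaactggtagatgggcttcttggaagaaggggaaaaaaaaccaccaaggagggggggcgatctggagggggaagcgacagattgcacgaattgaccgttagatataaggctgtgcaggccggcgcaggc
Those letters, on either strand, are in 7.06% of all 32851 promoter windows and in 1 of the 11 windows of the 7 matched genes. The octamer ATGCAAAT, the core recognised by POU proteins such as Pou5f1 and Pou3f1, is on either strand in 1.74% of all windows and in the window of Sox1. It begins 19 bases into the Sox1 transcript, and the 30 bases around it, at chr8:12395526-12395555 on the plus strand, are shown with the octamer in capitals.
Sox1, around its start: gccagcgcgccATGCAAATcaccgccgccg
The Sox core ACAAAG, also sought on both strands, was found in a window of Pax6 and in that of Fgf5, against 18.7% of all windows. The letters CAGATG on either strand, an E-box of the kind Neurod proteins bind, were found in 1 window of Otx2, against 17.2% of all. The letters TATAAA, those of a TATA box, were found on either strand in a window of Fgf5 and in 1 of Otx2, against 13.6% of all. They were sought anywhere in the window. Those of Fgf5 lie after the transcription start and those of Otx2 far before it, so neither was read as a TATA box. No match overlapped a match of another motif (0 in the 11 windows). These matches are letters in a sequence and were not tested as binding sites.

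Fgf5 and Pou3f1, the other primed epiblast genes of the set, were lower than WT in Dicer KO, and Pou3f1 also in Dgcr8 KO. Fgf5 (chromosome 5, positions 98254184 to 98277033), a growth factor that is the usual marker of the primed epiblast, had log2 levels of 6.46, 6.18 and 6.46 in Dgcr8 KO cells, 6.23, 6.16 and 6.08 in Dicer KO cells and 6.72, 6.64 and 6.43 in WT cells. Its Dgcr8 KO arrays overlapped both the Dicer KO and the WT arrays, while the Dicer KO arrays lay below the WT arrays. The log2 difference was -0.23 for Dgcr8 KO minus WT, -0.44 for Dicer KO minus WT and 0.21 for Dgcr8 KO minus Dicer KO (standard error 0.0971), and only that of Dicer KO minus WT was called. Dgcr8 KO minus WT was called without WT replicate 3 (-0.31), and Dgcr8 KO minus Dicer KO without Dgcr8 KO replicate 2 (0.30). Other alternatives brought these differences of Fgf5 nearer to zero. Over all alternatives Dgcr8 KO minus WT ran from -0.31 to -0.07, and Dgcr8 KO minus Dicer KO from 0.14 to 0.30. Pou3f1 (chromosome 4, positions 124657646 to 124660655), a POU factor that binds together with Otx2 in primed cells, had 7.57, 7.55 and 7.57 in Dgcr8 KO cells, 7.42, 7.03 and 7.31 in Dicer KO cells and 8.34, 8.07 and 8.10 in WT cells. Both mutants lay below every WT array, by a log2 difference of -0.60 in Dgcr8 KO cells and -0.92 in Dicer KO cells (standard error 0.103). The mutants differed by 0.31 with no overlap of arrays, which was not called in the fit used here. It was called without Dicer KO replicate 1 (0.40) and without WT replicate 1 (0.31). Over all alternatives this difference of Pou3f1 ran from 0.20 to 0.40.

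Zic2 and Zic5 lie beside each other on chromosome 14, with 9726 bases between them, and both were higher in the mutants than in WT. Zic2 (positions 122475384 to 122480328) had log2 levels of 9.39, 9.31 and 9.17 in Dgcr8 KO cells, 8.61, 8.68 and 8.51 in Dicer KO cells and 8.23, 8.21 and 8.34 in WT cells. Its 3 genotypes did not overlap, and the differences from WT were 1.03 in Dgcr8 KO cells and 0.34 in Dicer KO cells (standard error 0.0715). Dgcr8 KO exceeded Dicer KO by 0.69 for Zic2, a fold of 1.62. Zic5 (positions 122459160 to 122465658) is measured by a brighter and a dimmer transcript cluster, both annotated with the same RefSeq transcript. The brighter one had 9.71, 9.76 and 9.56 in Dgcr8 KO cells, 9.50, 9.52 and 9.48 in Dicer KO cells and 8.92, 9.15 and 8.95 in WT cells. The dimmer one had 7.67, 7.75 and 7.57 in Dgcr8 KO cells, 7.55, 7.52 and 7.54 in Dicer KO cells and 7.44, 7.47 and 7.26 in WT cells. Both clusters put the genotypes in the order of Zic2, without overlap, with smaller differences in the dimmer one. The log2 difference from WT was 0.67 and 0.49 for the brighter cluster (Dgcr8 KO and Dicer KO, standard error 0.0741) against 0.27 and 0.15 for the dimmer one (standard error 0.0676), and the difference of 0.15 was not called. Between the mutants Zic5 differed by 0.18 in the brighter and 0.13 in the dimmer cluster, neither of them called. Pcca, 4037 bases from Zic2, and Gm5089, 8014 bases from Zic5, were not called in any comparison, with log2 differences of 0.01 to 0.16 for Pcca and 0.04 to 0.19 for Gm5089. Tmem260, 96598 bases from Otx2, was not called either. Its log2 differences were 0.08 for Dgcr8 KO minus WT, -0.01 for Dicer KO minus WT and 0.10 between the mutants. Gm534, 201627 bases from Otx2 on the other side, had 0.18, -0.07 and 0.25 in the same order, none of them called. The mean log2 levels of Gm534 were 4.52 in Dgcr8 KO cells, 4.27 in Dicer KO cells and 4.33 in WT cells.

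The neural ectoderm genes of the set went different ways. Pax6 (chromosome 2, positions 105668896 to 105698410), a paired-box factor of the neural tube and the eye, had log2 levels of 7.66, 7.87 and 7.79 in Dgcr8 KO cells, 7.22, 7.30 and 7.30 in Dicer KO cells and 6.79, 6.91 and 6.83 in WT cells. Dgcr8 KO was highest, Dicer KO in the middle and WT lowest, with no overlap. The log2 differences from WT were 0.93 in Dgcr8 KO cells and 0.43 in Dicer KO cells, and the mutants differed by 0.50 (standard error 0.0628). Sox1 (chromosome 8, positions 12395519 to 12399555), the SoxB1 factor that marks neural commitment, had 8.13, 7.91 and 8.12 in Dgcr8 KO cells, 7.66, 7.90 and 7.81 in Dicer KO cells and 8.12, 7.88 and 7.61 in WT cells. The WT arrays of Sox1 spanned those of both mutants almost entirely, whereas the lowest Dgcr8 KO array (7.91) lay just above the highest Dicer KO array (7.90), and no difference was called. The log2 difference was 0.18 for Dgcr8 KO minus WT (95% interval -0.10 to 0.46), -0.08 for Dicer KO minus WT (-0.36 to 0.20) and 0.26 for Dgcr8 KO minus Dicer KO (-0.02 to 0.54). Leaving out WT replicate 1 moved the Dicer KO difference of Sox1 to 0.05. Without both WT replicate 1 and Dgcr8 KO replicate 2, Sox1 was called higher in Dgcr8 KO than in WT (0.38) and than in Dicer KO (0.33). Nes (chromosome 3, positions 87971093 to 87980451) had 6.83, 6.95 and 6.94 in Dgcr8 KO cells, 6.98, 6.74 and 7.01 in Dicer KO cells and 7.03, 7.44 and 7.31 in WT cells. Both mutants lay below every WT array, by -0.36 in Dgcr8 KO cells and -0.35 in Dicer KO cells (standard error 0.109), and the interval of the difference between the mutants was -0.25 to 0.24. The Nes call in Dgcr8 KO was lost without Dgcr8 KO replicate 1, 2 or 3 and without WT replicate 2 or 3, with differences of -0.27 to -0.38. That in Dicer KO was lost without Dicer KO replicate 2 and without WT replicate 2 or 3, with differences of -0.26 to -0.33.

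Of the neuronal genes, Neurod1 set Dicer KO apart and Ncam1 set both mutants apart from WT. Neurod1 (chromosome 2, positions 79452637 to 79456636), a basic helix-loop-helix factor of differentiating neurons and endocrine cells, had log2 levels of 7.16, 7.53 and 7.16 in Dgcr8 KO cells, 5.51, 5.83 and 5.82 in Dicer KO cells and 7.30, 7.89 and 7.58 in WT cells. Its Dicer KO arrays lay far below all others, while the Dgcr8 KO and WT arrays overlapped. The log2 difference was -1.87 for Dicer KO minus WT, a 3.65-fold lower level in Dicer KO, and 1.56 for Dgcr8 KO minus Dicer KO, a 2.95-fold higher level in Dgcr8 KO (standard error 0.162). For Dgcr8 KO minus WT it was -0.31 (95% interval -0.67 to 0.06), which was not called, and it was -0.58 and called without WT replicate 1 and Dgcr8 KO replicate 2 together. Ncam1 (chromosome 9, positions 49502129 to 49799393), an adhesion molecule of neural cells, had 8.93, 8.87 and 8.84 in Dgcr8 KO cells, 8.37, 8.45 and 8.37 in Dicer KO cells and 6.85, 6.91 and 6.80 in WT cells. The 3 genotypes were widely spaced against the spread of their arrays. Ncam1 was 4.08-fold higher in Dgcr8 KO and 2.92-fold higher in Dicer KO than in WT, log2 differences of 2.03 and 1.55, and the mutants differed by 0.48 (standard error 0.0514).

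Between the mutants, 5 of the 10 genes (Otx2, Zic2, Neurod1, Ncam1 and Pax6) were called higher in Dgcr8 KO cells than in Dicer KO cells and 0 lower (0 lower at an unadjusted p under 0.05 in limma as well), where 24.6% of all transcripts were called, 11.2% higher and 13.4% lower. Against WT, 5 were called higher and 2 lower in Dgcr8 KO (33.0% of all transcripts were called, 15.7% higher and 17.3% lower). In Dicer KO 4 were called higher and 5 lower than in WT (36.9% of all, 17.8% higher and 19.1% lower). Zic5 was counted by its brighter cluster, and by the dimmer one it would not count in Dicer KO. The arrays of the compared genotypes did not overlap for 8 of the 10 genes between Dgcr8 KO and Dicer KO, 7 between Dgcr8 KO and WT and 9 between Dicer KO and WT, beside 42.0%, 40.9% and 48.1% of all transcripts. The median log2 difference of the 10 genes was 0.40 between the mutants, 0.43 for Dgcr8 KO minus WT and -0.22 for Dicer KO minus WT, where the medians of all transcripts were 0.04, -0.01 and -0.06. Nothing is read from these counts, since the set was drawn up with these values known, and the comparisons with WT share the WT arrays.

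**Figure D2:**
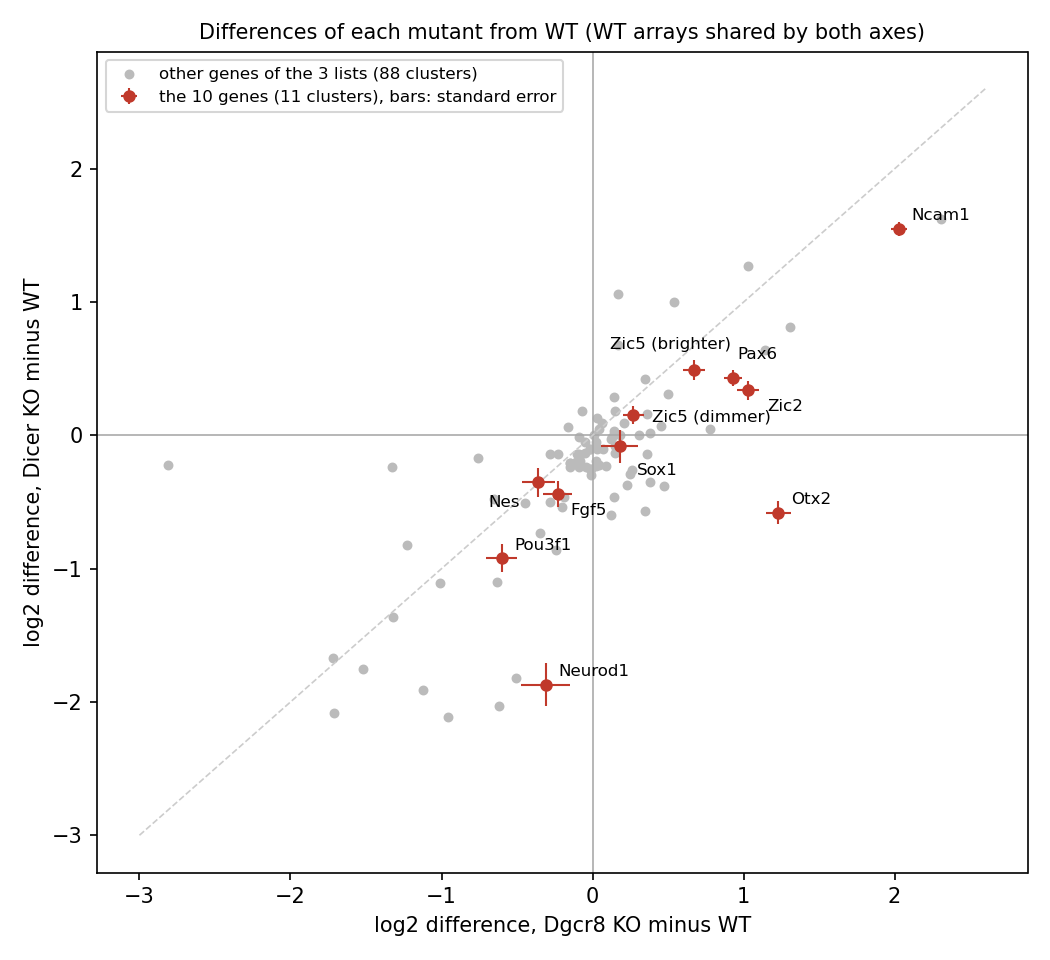
Log2 difference from WT of Dgcr8 KO (horizontal axis) and Dicer KO (vertical axis) for the 10 genes (red, with standard errors) and the other genes of the primed epiblast, neural ectoderm and neuronal differentiation lists (grey). Both axes use the same WT arrays, and the dashed line marks equal differences. Otx2 lies at 1.23 and -0.58, in the quadrant of opposite directions, and Neurod1 lies at -0.31 and -1.87.

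Over the 9 arrays, the level of Otx2 was most like that of Zic2 among the other genes of the set (Pearson's r 0.785), followed by Pax6 (0.69), Neurod1 (0.621), the dimmer Zic5 cluster (0.543), Sox1 (0.535), the brighter Zic5 cluster (0.44), Ncam1 (0.415), Fgf5 (0.226), Pou3f1 (0.129) and Nes (-0.143). The arrays fall into 3 genotypes, so these values describe mostly how alike the genotype means are. Other profiles were sought among 1092 transcripts with a gap of at least 1 between genotype means. Clusters with several symbols and predicted or accession-like names were passed over. The profile most like that of Otx2 was that of Zbtb44, a zinc finger protein gene, with r = 0.996. Its log2 levels were 9.77, 9.95 and 9.79 in Dgcr8 KO cells, 7.85, 7.95 and 7.77 in Dicer KO cells and 8.49, 8.56 and 8.56 in WT cells. The next were the phosphodiesterase gene Pde1b (0.991), Sash1 (0.990), the teneurin gene Tenm4 (0.989), Nap1l2 (0.988) and Kctd16 (0.982). All 6 were above WT in Dgcr8 KO, by log2 differences of 0.75 for Sash1 to 1.30 for Zbtb44. They were below WT in Dicer KO, by -0.36 for Nap1l2 to -0.69 for Kctd16. These genes were picked by their likeness to Otx2 on the same arrays, so the shared order of genotypes follows from the choice.

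**Figure D3:**
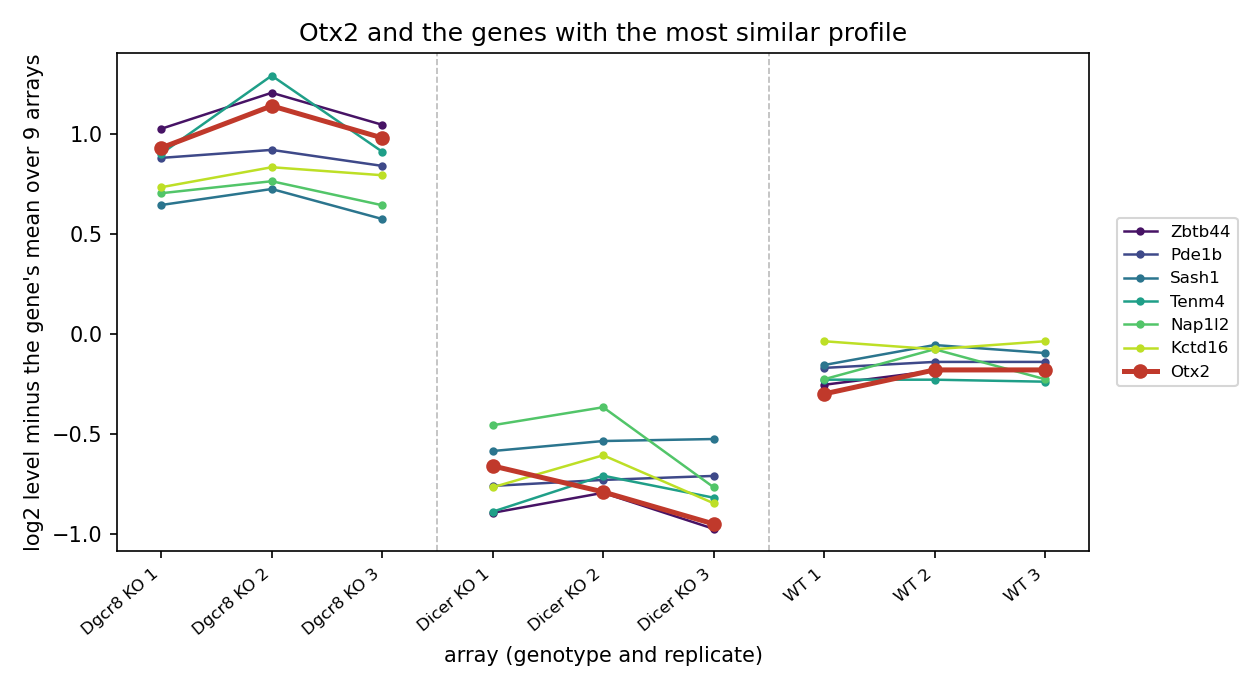
Log2 level minus the gene's own mean over the 9 arrays (vertical axis) for Otx2 and the 6 genes with the highest Pearson's r to it, on each array (horizontal axis, grouped as Dgcr8 KO, Dicer KO and WT). Lines join arrays of the same genotype only to mark the gene. All 7 are highest in Dgcr8 KO, with Dicer KO lowest, and r runs from 0.982 for Kctd16 to 0.996 for Zbtb44. The 6 were picked by r on these arrays, so the shared order follows from the choice.

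Family members of the 10 genes were counted in the same way. The mean log2 level of the 23 measured was 6.2 to 6.27 in Dgcr8 KO, 6.14 to 6.18 in Dicer KO and 6.16 to 6.32 in WT. These means lay below the array medians of 6.49 to 6.56, and whether low levels limit the calls was not tested. Of 23 measured paralogs (among them Otx1, Crx, Zic1, Zic4, Pou3f2, Neurod2, Ncam2 and Pax3), 0 were called by limma between Dgcr8 KO and Dicer KO (24.6% of all transcripts were), with 4 at an unadjusted p under 0.05, a smallest adjusted p of 0.0526 (Otx1) and a largest log2 difference of 0.30 in size. Against WT, 3 paralogs (13.0%) were called in Dgcr8 KO (2 higher, 1 lower), where 33.0% of all transcripts were. In Dicer KO 4 (17.4%) were called (2 higher, 2 lower), where 36.9% were. Pou3f2 was counted by its brighter cluster, which was not called. A dimmer cluster, at mean log2 levels of 3.18 in WT to 3.7 in Dgcr8 KO, was called higher in both mutants (0.52 in Dgcr8 KO, 0.48 in Dicer KO). Sox2, the SoxB1 factor that ES cells share with neural ectoderm, was among those called higher in both, by log2 differences of 0.35 in Dgcr8 KO cells and 0.42 in Dicer KO cells.

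The gene lists outside the set were also drawn up with earlier results of these data known. Their counts, shares and p-values, here and below, are a description and no independent test. Other primed epiblast genes were called lower than WT more often than higher in both mutants. Of 23 measured genes of a list without the 10 genes, 3 rose and 12 fell (52.2%, beside 17.3% of all transcripts) in Dgcr8 KO, with a median log2 difference of -0.28, and 2 rose and 13 fell (56.5%, beside 19.1%) in Dicer KO, with a median of -0.24. Dnmt3a and Dnmt3b, the de novo DNA methyltransferases that come on in the epiblast, fell in both. The log2 difference from WT of Dnmt3a was -1.71 in Dgcr8 KO (limma adjusted p = 1.2e-08) and -2.08 in Dicer KO (3.63e-09), and that of Dnmt3b was -1.32 (5.45e-07) and -1.36 (2.7e-07). Pim2, a serine/threonine kinase, fell by 1.72 in Dgcr8 KO cells and 1.67 in Dicer KO cells on the log2 scale. Cldn6, a tight junction claudin of epithelial epiblast cells, had log2 levels of 7.54, 7.73 and 7.82 in Dgcr8 KO cells, 10.32, 10.27 and 10.27 in Dicer KO cells and 10.46, 10.47 and 10.59 in WT cells. It was therefore lowest in Dgcr8 KO, with a log2 difference of -2.81 from WT (limma adjusted p = 1.45e-08) and -2.59 from Dicer KO (6.74e-08). Cldn6 was also called lower in Dicer KO than in WT, by a smaller log2 difference of -0.22 (limma adjusted p = 0.0415). Between the mutants, 10 genes of this list (43.5%) were higher and 4 (17.4%) lower in Dgcr8 KO, with a median of 0.14. Of all transcripts, 11.2% were higher and 13.4% lower. Sox4, a SoxC factor, was higher in Dgcr8 KO cells than in Dicer KO cells by 1.31 (limma adjusted p = 2.03e-05), and its 3 Dgcr8 KO arrays carry the same value. Etv4, an ETS factor downstream of FGF signals, and Grhl2, an epithelial factor, were lower in Dgcr8 KO cells than in Dicer KO cells by log2 differences of -1.10 and -0.59.

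Neural ectoderm genes outside the set were called higher in Dgcr8 KO more often than lower. Of 34 measured genes, 10 rose and 3 fell in Dgcr8 KO against WT (median 0.06), 4 rose and 10 fell in Dicer KO against WT (median -0.14), and 13 were higher and 1 lower in Dgcr8 KO cells than in Dicer KO cells (median 0.17). The genes higher in Dgcr8 KO were 29.4% of the list against WT and 38.2% against Dicer KO, beside 15.7% and 11.2% of all transcripts. Those lower in Dgcr8 KO were 8.8% and 2.9%, beside 17.3% and 13.4%. In Dicer KO against WT, 11.8% were higher and 29.4% lower, beside 17.8% and 19.1%. Vim, the intermediate filament vimentin, rose 4.95-fold in Dgcr8 KO and 3.08-fold in Dicer KO, log2 differences of 2.31 (limma adjusted p = 7.92e-09) and 1.62 (3.11e-08). Cdh2, the neural cadherin, rose by 1.14 in Dgcr8 KO cells and 0.64 in Dicer KO cells. Id4, an inhibitor of basic helix-loop-helix factors, rose less in Dgcr8 KO cells (0.54) than in Dicer KO cells (1.00), and was the gene lower in Dgcr8 KO cells than in Dicer KO cells (-0.47, limma adjusted p = 0.00239). Gbx2, a homeobox gene of the hindbrain that is also on in naive cells, fell in both, by 1.01 in Dgcr8 KO cells and 1.11 in Dicer KO cells. Sox11, a SoxC factor, fell by 0.35 in Dgcr8 KO cells and 0.73 in Dicer KO cells. Sox21 rose by 0.45 in Dgcr8 KO cells, with a log2 difference of 0.07 in Dicer KO, which was not called. Gli3, a hedgehog effector, and Msi1, an RNA-binding protein of neural progenitors, were called like Otx2, higher than WT in Dgcr8 KO and lower than WT in Dicer KO. Gli3 had log2 levels of 7.78, 7.82 and 7.81 in Dgcr8 KO cells, 7.08, 7.12 and 7.0 in Dicer KO cells and 7.37, 7.46 and 7.43 in WT cells. Olig2, a factor of motor neuron and oligodendrocyte progenitors, fell by 0.46 in Dicer KO, with a log2 difference of 0.14 in Dgcr8 KO that was not called.

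Neuronal differentiation genes were called in both directions. Of 31 measured genes, 4 rose and 6 fell in Dgcr8 KO against WT (median -0.01), 5 rose and 9 fell in Dicer KO against WT (median -0.14), and 9 were higher and 4 lower in Dgcr8 KO cells than in Dicer KO cells (median 0.18). In Dgcr8 KO against WT these shares, 12.9% higher and 19.4% lower, were near the 15.7% and 17.3% of all transcripts, and in Dicer KO against WT they were 16.1% and 29.0%, beside 17.8% and 19.1%. Between the mutants 29.0% were higher and 12.9% lower, beside 11.2% and 13.4%. The last count was 6 higher and 2 lower without Dicer KO replicate 2. Mapt, which encodes the microtubule protein tau, rose by 1.03 in Dgcr8 KO cells and 1.27 in Dicer KO cells, and Nefl, the light neurofilament, by 1.31 and 0.81. Gap43, a growth cone protein, fell by 1.52 in Dgcr8 KO cells and 1.75 in Dicer KO cells, and Dll3, a Notch ligand of the delta family, by 0.63 and 1.10. Ina, the neurofilament alpha-internexin, was lowest in Dicer KO, like Neurod1. In the cluster named by the rule Ina had log2 levels of 9.63 on each of the 3 Dgcr8 KO arrays, 8.20, 8.22 and 8.26 in Dicer KO cells and 10.20, 10.35 and 10.21 in WT cells. The log2 difference between Dgcr8 KO and Dicer KO was 1.41 for Ina (limma adjusted p = 2.9e-07), and a second cluster of the gene gave 1.15 (0.000133). Insm1, a zinc finger factor that acts near Neurod1 in neuroendocrine cells, was 0.61 higher in Dgcr8 KO cells than in Dicer KO cells (limma adjusted p = 0.000176) and fell by 0.86 in Dicer KO against WT. Nefh, the heavy neurofilament, was called higher than WT in Dgcr8 KO (0.47) and lower than WT in Dicer KO (-0.38). Identical values on the 3 arrays of a genotype, as for Sox4, Ina and Insm1 in Dgcr8 KO and Nefh in WT, occurred for 381 transcripts in Dgcr8 KO, 469 in Dicer KO and 312 in WT of the 22982, and their SD in that genotype is 0.

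FGF signals through ERK help ES cells leave the naive state, and genes on either side of that step were counted. Of 16 FGF-ERK response genes, 4 rose and 9 fell in Dgcr8 KO, and 3 rose and 7 fell in Dicer KO. The 9 that fell in Dgcr8 KO were 56.2% of the list, where 15.7% of all transcripts rose and 17.3% fell. In Dicer KO 18.8% of the list rose and 43.8% fell, beside 17.8% and 19.1% of all. Between the mutants, 6 genes were called higher and 6 lower in Dgcr8 KO cells (37.5% each way), beside 11.2% and 13.4% of all. Spry2, a feedback inhibitor of the pathway, fell by 0.86 in Dgcr8 KO cells and 1.5 in Dicer KO cells, whereas Spry4 fell by 0.77 in Dgcr8 KO cells, with a log2 difference of -0.11 in Dicer KO, which was not called. Ccnd1, a cyclin of the G1 phase, was 0.30 higher in Dgcr8 KO cells than in Dicer KO cells (limma adjusted p = 0.00106). Naive pluripotency genes were mostly above WT. Of 18 genes, 13 rose and 2 fell in Dgcr8 KO, and 14 rose and 2 fell in Dicer KO. Those that rose were 72.2% of the list in Dgcr8 KO and 77.8% in Dicer KO, beside 15.7% and 17.8% of all transcripts. Those that fell were 11.1% in each mutant, beside 17.3% and 19.1% of all. Between the mutants, 3 of the 18 genes were called higher and 9 lower in Dgcr8 KO cells, beside 11.2% and 13.4% of all. Gbx2, which fell in both mutants, is on this list and on the neural ectoderm list. Tfcp2l1 (0.72 in Dgcr8 KO cells and 1.45 in Dicer KO cells), Tbx3 (1.38 and 1.99) and Klf4 (0.19 and 0.60), all transcription factors of the naive state, rose less in Dgcr8 KO. Nr0b1, a nuclear receptor of the naive state, rose by 0.54 in Dgcr8 KO cells, with a log2 difference of 0.08 in Dicer KO, which was not called.

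Markers of other cell types that a plate could hold were measured beside these genes, and their calls between the mutants stand beside 11.2% higher and 13.4% lower of all transcripts. For 13 mesoderm genes the mean log2 level was 6.47 to 6.58 in Dgcr8 KO, 6.5 to 6.55 in Dicer KO and 6.39 to 6.51 in WT, and 1 was called higher and 1 lower between the mutants. For 15 primitive endoderm genes it was 6.36 to 6.49, 6.27 to 6.34 and 6.64 to 6.75 in the same order, with 3 higher and 0 lower between the mutants by limma (0 lower at an unadjusted p under 0.05). For 12 neural crest genes it was 6.76 to 6.82, 6.71 to 6.75 and 6.55 to 6.61, with 2 higher and 1 lower. For 12 surface ectoderm genes it was 7.25 to 7.36, 7.56 to 7.61 and 7.61 to 7.66, with 0 higher and 5 lower by limma (0 higher at an unadjusted p under 0.05). The 9 glial genes ran from 6.11 to 6.23, 6.09 to 6.12 and 6.28 to 6.49, with 0 called between the mutants by limma (0 at an unadjusted p under 0.05). For 13 fibroblast genes, which a feeder layer would bring, the mean was 6.82 to 6.97 in Dgcr8 KO, 6.71 to 6.79 in Dicer KO and 7.03 to 7.13 in WT, with 5 higher and 0 lower between the mutants by limma (1 lower at an unadjusted p under 0.05), and Vim is on this list as well. Against WT, 2 fibroblast genes (15.4%) were called higher and 2 (15.4%) lower in Dgcr8 KO, beside 15.7% and 17.3% of all transcripts. In Dicer KO 2 (15.4%) were called higher and 3 (23.1%) lower, beside 17.8% and 19.1%. Fn1, which encodes fibronectin, and Vim were higher in both mutants, with log2 differences for Fn1 of 0.54 in Dgcr8 KO cells and 0.20 in Dicer KO cells. The collagen genes Col1a1, Col1a2 and Col3a1 were not called in any comparison. Acta2 and Tagln, smooth muscle proteins also made by fibroblasts, were lower in both mutants, at mean log2 levels of 7.15 and 7.16 in Dgcr8 KO cells, 6.69 and 6.79 in Dicer KO cells and 9.60 and 9.21 in WT cells. Log2 levels of array probes have no true zero, so the absence of a marker could not be read from them. The part of any of these cell types in the levels of Otx2 and the other genes was not tested.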

How the data were processed

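RNA of Dgcr8 KO, Dicer KO and WT ES cells had been hybridised to 9 arrays of 1 colour. The deposited log2 values had been normalized by the authors. The study's methods name RMA and the submitters' processing notes name GCRMA, with no version given in the sources used here. The values were used as deposited, and the number of arrays limits the precision. Groups were taken from the sample labels.

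Clusters were named through the platform annotation, and gene positions were read from RefSeq (GRCm38.p6). Of 35557 transcript clusters, 12147 without a symbol, 326 with microRNA genes only, 5 mitochondrial and 97 Y-linked ones were left out, and 22982 were counted. The 3 genotype means were estimated from all 9 arrays by limma 3.58.1 in R 4.3.3 (lmFit and eBayes, 6 residual degrees of freedom), with Benjamini-Hochberg adjustment over the transcripts counted and calls at an adjusted p under 0.05. SAM, the test of the study's methods, was not run. A gene with several clusters was counted once, Zic5 by its brighter cluster. The fit was also run on simulated data with independent normal noise and with changes added to a small part of the transcripts in Dgcr8 KO only. That run checks the code and does not give the error rates of the calls on these arrays.

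The genes and lists were chosen with earlier results of these data known. Named beside the 10 genes were the 4 called genes with the smallest adjusted p in each of the 3 main lists and comparisons, up to 4 FGF-ERK and 4 naive genes by adjusted p between the mutants, called paralogs, chromosomal neighbours of Otx2, Zic2 and Zic5, and the 6 profiles most like Otx2. Sox2, Pou5f1, Acta2, Tagln, Fn1, Col1a1, Col1a2, Col3a1, Otx1 and Prom1 were named after their values were seen. In all, 21 alternatives were planned and 1, a fit without both WT replicate 1 and Dgcr8 KO replicate 2, was added after the data were seen.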

Additional observations from a re-analysis of the deposited data

Results flagged for a closer look

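Otx2 differed from WT in opposite directions in the mutants, by a log2 difference of 1.23 in Dgcr8 KO cells and -0.58 in Dicer KO cells, with every array of Dgcr8 KO above and every array of Dicer KO below the WT arrays. Limma called the difference between the mutants, but the gene was chosen with these levels known, so that call is no independent test.

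Of the genes in the neural lists, 4 were called in opposite directions against WT. The log2 difference of Dgcr8 KO minus Dicer KO was 0.54 for Msi1, 0.92 for Prom1, 0.73 for Gli3 and 0.85 for Nefh. These are given as a description, since the opposite calls against the same WT arrays fix the direction between the mutants. Prom1, a membrane glycoprotein of neural and other progenitors, had log2 levels of 6.93, 6.72 and 6.65 in Dgcr8 KO cells, 5.89, 5.83 and 5.82 in Dicer KO cells and 6.19, 6.63 and 6.43 in WT cells.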

How the results depend on the processing

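The 12 counts of called genes were computed under 22 alternatives, and 250 of the 264 values stayed within 1.5 times the main count. With a minimum change of 1.5-fold built into the test, the 10 genes had 4 calls in Dgcr8 KO against WT, 2 in Dicer KO against WT and 2 between the mutants, the primed epiblast genes 7, 5 and 3, the neural ectoderm genes 3, 3 and 0, and the neuronal differentiation genes 3, 6 and 2 in the same order. This test asks for a larger change by construction. At an adjusted p under 0.01 the neuronal differentiation genes had 8 calls between the mutants. With 1 array left out, that count was 8 to 14, and it was 8 without Dicer KO replicate 2. The number of calls among the 10 genes was then 6 to 7 in Dgcr8 KO against WT, 8 to 9 in Dicer KO against WT and 5 to 6 between the mutants. Of 726 values of the 10 genes, 676 kept direction and side of the threshold, 30 lost a call, 17 gained one and 3 changed sign. The sign changes were those of Sox1 in Dicer KO minus WT, at 0.01 with array weights, 0.05 without WT replicate 1 (its range with 1 array left out was -0.21 to 0.05) and 0.05 without WT replicate 1 and Dgcr8 KO replicate 2, and the cause was not tested. Nes lost its calls most often. Otx2 kept its calls in every alternative except the minimum fold, where that of Dicer KO minus WT was lost. The other named genes kept 1182 of 1210 values and lost the call in 28. Centring each array on its median moved the calls of all transcripts to 57.4% higher in Dicer KO against WT (48.2% as deposited) and 32.2% higher between the mutants (45.5% as deposited). The numbers of the replicates were not used to pair the arrays in the main fit. The correlation of same-numbered deviations ran from -0.199 to 0.344 and was over 0.1 for 5 of 9 pairs. With so few arrays per genotype, whether same-numbered arrays belong together cannot be told from these values. With the replicate number as a block, 8, 9 and 6 of the 10 genes were called in Dgcr8 KO against WT, Dicer KO against WT and between the mutants, and 4 of 9 arrays correlated best with their own number. No signal over background is in the deposited values, so what the signal limits could not be given.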
